A study of Rattus norvegicus with 3 samples.

Results

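The glucocorticoid receptor (GR) regions described here lay more than 10 kb downstream of the nearest paired gene start, most of them inside long genes. Each distinct region of the authors' integrated sheet was assigned to the paired gene with the smallest absolute distance from the region to the gene start, and the region was kept where that start lay more than 10 kb before it. This gave 2890 of 8514 regions (33.9%). Of the rest, 3822 regions lay within 1 kb of a start, 886 lay upstream beyond 1 kb and 916 lay 1 to 10 kb downstream. The lowest distance of any region in the sheet was -10206 bases, upstream of the start, so distal regions were on the gene side of the start by the way the sheet was built.

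The transcript data came from ventricular myocytes of newborn Sprague Dawley rats, prepared from 1-day-old pups by enzyme digestion, a Percoll gradient and preplating, and cultured without serum before treatment. The cells received ethanol as the control, 100 nM dexamethasone for 1 h, or 100 nM dexamethasone for 24 h. Dexamethasone is a synthetic glucocorticoid that binds GR. The sample titles speak of 2 libraries in each group, but the deposited tables give 1 pooled value per gene and group, so no spread between replicates can be shown, and the same control value served both time points. The GR regions came from a separate chromatin immunoprecipitation (ChIP) experiment whose control is headed DMSO, and for which no replicate and no treatment time were given in the sources used here.

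GR is a nuclear receptor that stays mostly in the cytoplasm, held by chaperones, until a glucocorticoid binds it, after which it moves into the nucleus and binds DNA directly or through other factors. In many cell types most GR binding lies away from promoters, in introns and between genes, at enhancers that can be far from the gene they act on. In the heart GR signalling takes part in the late maturation of the myocyte, in calcium handling and in metabolism. A region that lies inside a gene may act on that gene, on another gene or on none, and the pairing used here is by position alone.

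The region sequences are not shown because the regions are placed on the rat build rn5, whose sequence was not used here. To set the distal regions beside the sequence at the start of their genes, RefSeq windows of 250 bases before the start (build GRCr8) were searched on both strands for the GR hexamer AGAACA, 1 arm of the palindromic GR element, which reads TGTTCT on the other strand. A window matched by symbol for 977 of the 1305 genes that had both a distal region and a row in the expression table, and 90 of these windows (9.21%) held a hexamer. Over all 27457 windows of the reference the share was 17.1%. That set was not limited to genes with a row in the expression table, so the sets are unlike and the difference was not tested. Full palindromes, 2 hexamers with 3 bases between them, were in 0 of the 977 windows and in 1 window of the whole reference. Among distal-region genes called higher after dexamethasone, a hexamer stood in 9 of 84 matched windows (10.7%) for the 24 h calls and in 3 of 13 (23.1%) for the 1 h calls. Among genes called lower at 24 h it stood in 4 of 15 (26.7%). These matches describe letters only.

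The windows of 3 genes called higher at 24 h are printed, with hexamers in capitals, to show a start with and without this motif beside regions that lie far from it. Fkbp5 (chr20:6543556-6543805, minus strand) and Sorcs1 (chr1:259535487-259535736, minus strand) had no hexamer in the window, whereas Spsb1 (chr5:165654226-165654475, minus strand) had 1, at position -61 from the start.
Fkbp5: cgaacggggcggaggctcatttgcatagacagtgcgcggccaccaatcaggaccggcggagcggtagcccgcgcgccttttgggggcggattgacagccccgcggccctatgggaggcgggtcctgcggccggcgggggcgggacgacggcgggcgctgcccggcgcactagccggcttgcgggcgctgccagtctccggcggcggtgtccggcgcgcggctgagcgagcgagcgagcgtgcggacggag
Sorcs1: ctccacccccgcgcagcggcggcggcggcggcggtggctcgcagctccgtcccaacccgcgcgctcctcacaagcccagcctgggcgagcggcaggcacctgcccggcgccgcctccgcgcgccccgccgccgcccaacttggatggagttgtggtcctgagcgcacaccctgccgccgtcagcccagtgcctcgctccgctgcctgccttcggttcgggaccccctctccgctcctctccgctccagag
Spsb1: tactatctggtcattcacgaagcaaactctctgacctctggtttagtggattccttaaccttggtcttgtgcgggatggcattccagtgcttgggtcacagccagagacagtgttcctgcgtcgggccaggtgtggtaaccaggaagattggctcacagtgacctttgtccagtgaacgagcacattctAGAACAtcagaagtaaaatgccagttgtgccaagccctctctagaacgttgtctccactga

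Regions over 10 kb downstream were the tallest of the 4 position classes. Height is the highest average tag value of a region in the authors' sheet. Its median was 23.3 (quartiles 18.8 and 32.1) for the distal regions, against 19.7 (16.9 and 22.9) within 1 kb of a start, 21.4 (17.7 and 27.1) upstream beyond 1 kb and 21.5 (17.7 and 28.9) at 1 to 10 kb downstream. The upper end differed more than the middle: 240 distal regions (8.30%) reached a height of 50, against 30 (0.785%) within 1 kb, 44 (4.97%) upstream and 62 (6.77%) at 1 to 10 kb downstream. Widths were alike, with a median of 328 bases for the distal regions and 325.5 bases within 1 kb. Each region has 1 height with no replicate values used here, and these differences between classes were not tested.

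The ratio of the dexamethasone to the DMSO ChIP signal, on the log2 scale in the authors' sheet, set the classes further apart. Its median was 3.22 (quartiles 2.59 and 3.89) in the 2857 distal regions with a readable value, against 1.85 within 1 kb, 2.72 upstream and 2.80 at 1 to 10 kb downstream. A log2 ratio above 3 was found in 58.8% of the distal regions and in 7.49% of those within 1 kb. A ratio below 1, a gain of under 2-fold with dexamethasone, was found in 10 distal regions (0.350%) and in 7.52% of those within 1 kb.

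CpG islands moved with these classes. An island was marked in 151 distal regions (5.22%), in 93.3% of those within 1 kb, in 33.6% of those upstream and in 25.9% of those at 1 to 10 kb downstream. Among regions without an island the median height was 23.7 in the distal class, 23.0 upstream, 22.8 at 1 to 10 kb downstream and 19.6 within 1 kb. Among regions with one it was 19.1, 19.5, 18.7 and 19.7 in the same order. The distal class therefore lay within 1 height unit of the upstream and the 1 to 10 kb classes at a like island status. Its median log2 ratio without an island was 3.27, against 3.11 upstream, 3.07 at 1 to 10 kb downstream and 2.43 within 1 kb. With an island it was 2.0, against 2.07, 2.07 and 1.81 in the same order. The part of the islands in the differences between classes was not tested.

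**Figure D1:**
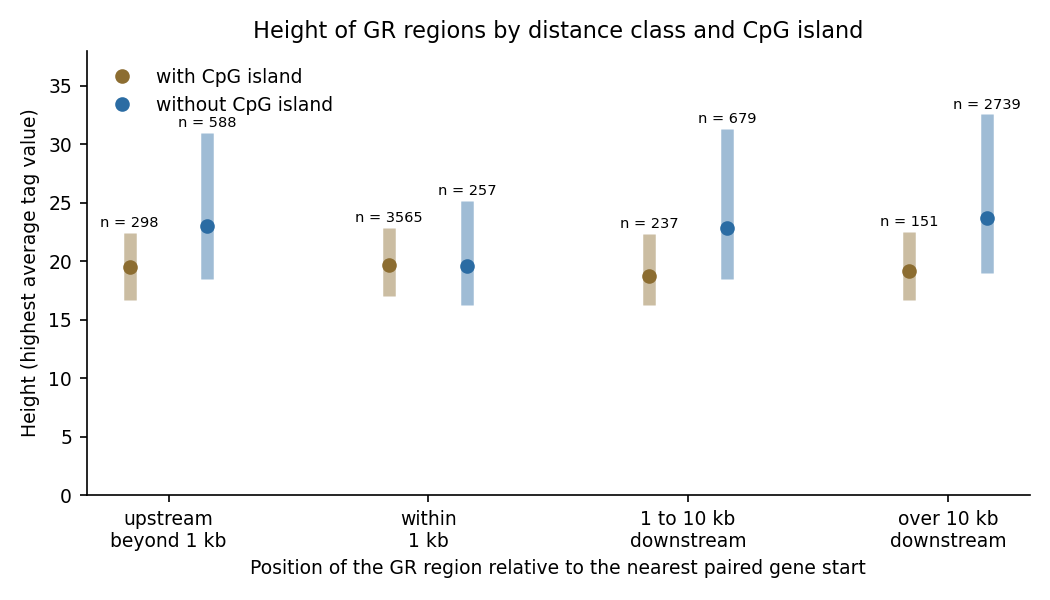
Height of GR regions (highest average tag value, linear axis) for the 4 position classes, split by CpG island; points are medians, bars run from the lower to the upper quartile, and n is the number of regions. Distal regions without an island had a median of 23.7 and those with one a median of 19.1, and only 151 of the 2890 had one.

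Distal regions spread over the whole length of their genes. The distance to the start had a median of 50.1 kb (quartiles 23.3 and 106 kb) and reached 1991 kb. By the sheet's own position label 2512 (86.9%) lay in the gene and 378 (13.1%) past its end. For 1911 in-gene regions the distance matched, within 200 bases, the distance from an end of the locus of the paired expression row. These lay at a median of 53.2% of the locus length (quartiles 33.1% and 75.4%). Other in-gene regions, some of them placed, were given no such position. Of the distal regions 2773 (96.0%) were paired with only 1 gene in the sheet. The 305 placed regions past a gene end were at most 9993 bases beyond it, with a median of 5270 bases. Every one of the 21 chromosomes in the sheet held distal regions. Loci of the paired genes had a median length of 81.0 kb, against 16.3 kb over the table.

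Height hardly varied with distance inside the class. The median height was 23.1 at 10 to 20 kb (562 regions), 23.0 at 20 to 50 kb (882), 23.6 at 50 to 100 kb (684), 23.1 at 100 to 200 kb (455) and 24.1 beyond 200 kb (307). The log2 ChIP ratio stayed between 3.12 and 3.32 over the same bins. CpG islands became fewer with distance, from 8.01% of regions at 10 to 20 kb to 2.61% beyond 200 kb. Regions past the gene end had a median height of 23.6 against 23.2 in the gene, and carried an island in 12.4% against 4.14%.

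The threshold of 10 kb cut through a continuous range. The last regions below it included those of Ephx3 at 9988 bases (height 16.6), Sntb2 at 9989 (14.8), Nodal at 9997 (17.5) and Sec62 at 10000 (24.2). The first above it belonged to Mmp24 at 10004 bases (height 59.8), Lif at 10008 (20.7), Rasal2 at 10012 (30.4), Csrp1 at 10037 (22.2) and Abcb9 at 10045 (20.6). These values describe the edge and were not compared.

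Many genes held several distal regions. The 2890 regions were paired with 1620 gene names, of which 1027 had 1 region and 593 had 2 or more, and the latter held 1863 regions (64.5%). Neighbouring regions of 1 gene were a median of 12.7 kb apart (quartiles 3.91 and 37.3 kb). At 86 names there were 5 or more. Regions of 1 gene share that gene's expression value and do not count as separate observations of it.

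Tns1, which encodes the focal adhesion protein tensin, held the most, with 23 regions at 43.1 to 215 kb and heights of 15.2 to 96.3. Zbtb16, a zinc finger transcriptional regulator also called PLZF, followed with 13, and Zmiz1 with 12. The expression rows of Zmiz1 and Macf1 share a locus with another row and are uncertain. Rbm20, the splicing factor that acts on titin transcripts in cardiac muscle, and Itga9, an integrin subunit with no row in the expression table, each had 11. Macf1, a protein that links actin and microtubules, had 10. Col4a1 (basement membrane collagen), Nfia (a nuclear factor I transcription factor), Nuak1 (a kinase related to AMPK) and Pdzrn3 had 9 each. The regions in Col4a1 were low, at 12.2 to 27.4.

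The 10 tallest distal regions came from 9 names. The tallest, at a height of 134.375, lay 12.1 kb from the start of LOC100910104, which has no row in the expression table. Next was the region at chr14:91723656-91724271 (rn5), 69.7 kb into Ddc, which encodes aromatic L-amino acid decarboxylase; its height was 134.2, while the other 3 distal regions of Ddc were at 20.1 to 22.0. Zbtb16 had heights of 125.7 (chr8:51664392-51665056) and 111.4 (chr8:51647642-51649176), at 75.1 and 91.4 kb. Lrch1 had 1 of 120.0 at 57.5 kb, and Map1b, a microtubule-associated protein of neurons, had 1 of 118.8 at 30.4 kb. The region at chr20:48418455-48418930, 71.1 kb into Sesn1, had a height of 118.4. The last 3 were 1 at F3, the gene of tissue factor (117.5), 1 at Klf13, a Kruppel-like transcription factor (106.5), and 1 at Tom1l2 (105.9). The regions of F3 and Tom1l2 lay past the gene end, by 441 and 5038 bases.

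**Figure D2:**
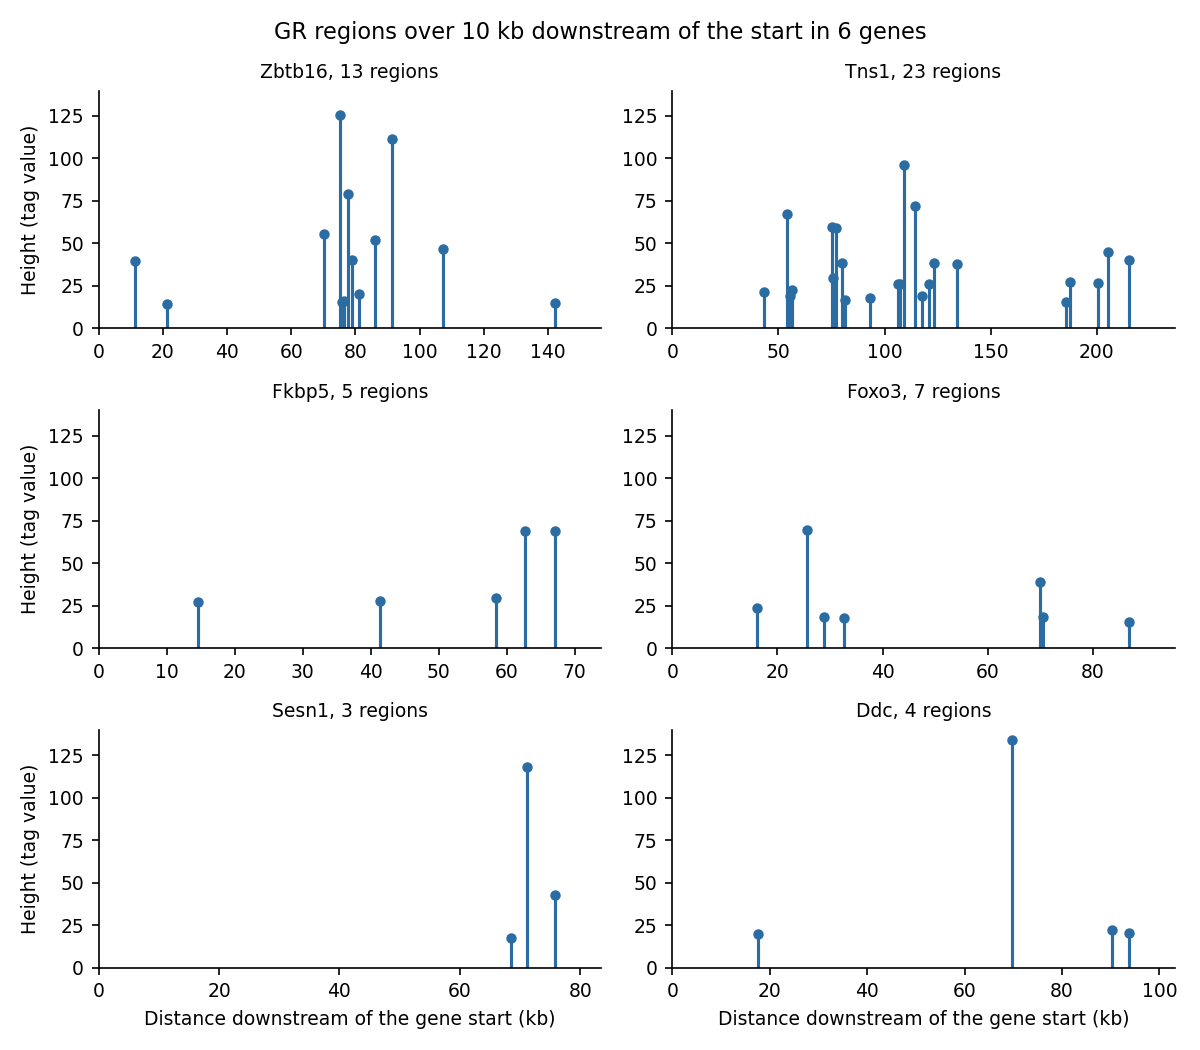
Height of each distal region (highest average tag value) against its distance downstream of the gene start in kb, for 6 genes. Each line is 1 region; the tall regions of Zbtb16 lie at 70.1 to 107 kb, those of Fkbp5 at 62.6 and 67.1 kb, and Ddc has 1 region at 134.2 with the others at 22.0 or lower.

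The paired genes were followed in the authors' table of FPKM (fragment counts scaled by transcript length and by library size), in which a gene is called here where the authors' q-value, adjusted over all their tests, is at most 0.05. Of the 2890 regions, 2346 could be joined to a row, giving 1305 genes, and 544 regions (18.8%) could not. The table covered 11582 tested genes at 1 h and 11673 at 24 h, and its depth is unknown because it holds no counts. The values are from bulk cultures, in which fewer cells of a type and less RNA per cell cannot be told apart. Summed FPKM of 11 cardiomyocyte markers was 29870 in the control, 28584 at 1 h and 25073 at 24 h. Of these Myl2, a ventricular myosin light chain, was called lower at 24 h, at 8776 FPKM in the control and 2456 at 24 h, and the other 10, none of them called, summed to 21093, 19854 and 22617 FPKM. Sums for other cells were, in the same order, 46.2, 47.9 and 88.9 for 6 endothelial markers (3 called higher at 24 h), 123, 129 and 223 for 8 macrophage markers (4 higher and 1 lower at 24 h), and 90.4, 182 and 194 for 4 erythroid markers (3 higher at each time). Fibroblast markers summed to 6329, 6160 and 5231 (1 called higher at 24 h), and smooth muscle markers to 8522, 7389 and 9336 (1 lower at 24 h). The fibroblast sum holds Col1a2 from 2 rows, at 1876 and 1866 FPKM in the control, so that gene is counted more than once. The fibroblast marker Col1a1 is listed at 0 in all 3 groups, was not tested by the authors and is left out of the sum. Its row carries the mark HIDATA (too many fragments at the locus), so this 0 is not a measured level. No other marker with a row was at 0. Kdr and Pecam1, markers of endothelial cells, were themselves paired with distal regions and called higher at 24 h. Without the markers of other cell types 114 of 1196 distal-region genes (9.53%) were called higher at 24 h, against 116 of 1198 with them. So few genes were left out that this share could hardly change, and it says nothing on cell composition.

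More of the genes with distal regions were called higher after dexamethasone than of all genes tested, at 1 h and at 24 h. Among 1189 distal-region genes tested at 1 h, 17 (1.43%) had a higher call and 2 (0.168%) a lower one, where the background over all tested genes was 0.622% higher, 0.242% lower and 0.863% in either direction. At 24 h, 116 of 1198 (9.68%) were called higher and 20 (1.67%) lower, where the background was 4.18% higher, 2.04% lower and 6.22% in either direction. At a q-value of at most 0.01 the counts were 9 higher at 1 h (0.757%, background 0.423%), 0 lower at 1 h (background 0.121%) and 89 higher at 24 h (7.43%, background 2.99%). At an unadjusted p under 0.05 in either direction there were 36 distal-region genes (3.03%) at 1 h, close to the 320 (2.76%) of all tested genes, and 295 (24.6%) at 24 h, where all tested genes gave 1672 (14.3%). The typical gene was near its control level: the median log2 difference of FPKM + 1 was 0.00 at 1 h and 0.07 at 24 h, where the median over all genes was 0.00 at both.

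The share called higher at 24 h was not the greatest in the distal class. It was 14.1% for genes with a region at 1 to 10 kb downstream, 11.0% for genes with 1 upstream beyond 1 kb, 4.14% for genes with 1 within 1 kb, and 3.45% for genes with no region. Of the 1305 distal-region genes 540 also had a region of another class, and their share was 11.7% (62 of 532), against 8.11% (54 of 666) for the 765 with distal regions alone. Called lower at 24 h were 4 genes (0.752%) in the first set and 16 (2.40%) in the second. The background over all tested genes was 2.04% lower at 24 h, so the second set was near that share. At 1 h the share called higher was likewise not the greatest in the distal class, at 1.43%. It was 3.16% for genes with a region at 1 to 10 kb downstream and 2.79% for genes with 1 upstream beyond 1 kb. For genes with 1 within 1 kb it was 0.916%, and for genes with no region 0.334%, where the background over all tested genes was 0.622%. Genes enter more than 1 class, so the classes were not compared by a test.

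A gap at 24 h stood in every range of locus length examined. At loci of 10 to 50 kb 9.86% of genes with a distal region were called higher, against 3.11% of genes with no region. The shares were 9.87% against 3.87% at 50 to 100 kb, 8.24% against 4.68% at 100 to 200 kb, and 9.48% against 3.56% above 200 kb. The 2 sets differed in level as well as in regions. Median control FPKM in the 4 ranges was 16.1, 15.8, 13.6 and 10.1 with a distal region, and 10.5, 7.51, 6.34 and 5.11 with no region. Genes with a distal region here include those that also had a region of another class. The part of either difference in the gap was not tested. At 1 h the distal-region genes called higher had loci of 10 kb or more in all but 2 cases, 7 at 10 to 50 kb, 6 at 50 to 100 kb and 2 at 100 to 200 kb.

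**Figure D3:**
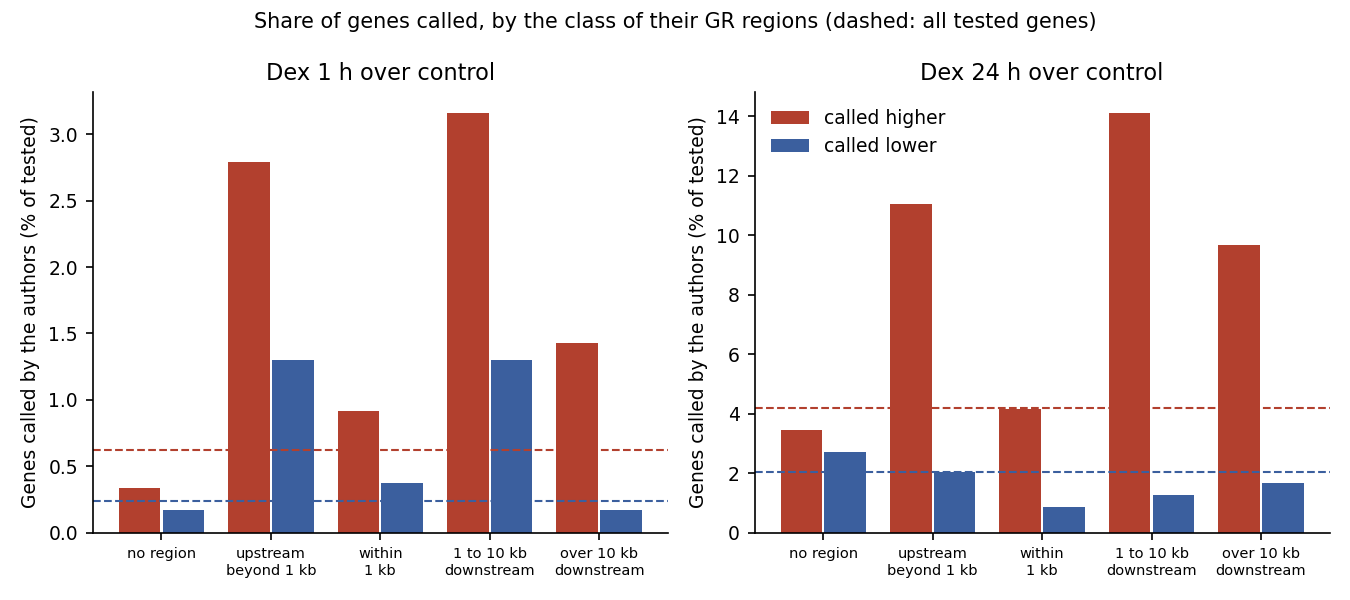
Percent of tested genes that the authors' q-value calls higher or lower (linear axes from 0; the 2 panels have different scales), for genes with no region and genes paired with a region of each class; dashed lines are the shares over all tested genes. Genes with a distal region stood at 9.68% higher at 24 h, between the 14.1% of the 1 to 10 kb class and the 4.14% of the class within 1 kb.

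Taller distal regions were paired with more called genes. Each gene was put in 1 of 4 groups of like size by the height of its tallest distal region. At 24 h, 18 of 300 genes (6.0%) were called higher in the lowest group (heights 11.9 to 20.3), 21 of 299 (7.02%) in the next, 30 of 297 (10.1%) in the next and 47 of 302 (15.6%) in the highest (38.8 to 134.2). At 1 h the counts were 2 of 297 (0.673%), 1 of 294 (0.340%), 5 of 296 (1.69%) and 9 of 302 (2.98%). Over all tested genes 0.622% were called higher at 1 h and 4.18% at 24 h, so the lower 2 groups were near or below that share at 1 h. Where the tallest region reached 50, 31 of 161 genes (19.3%) were called higher at 24 h. Locus length moved with this order, from a median of 65.6 kb in the lowest group to 106 kb in the highest, and so did the number of distal regions, from a median of 1 to 2; neither the order nor their part in it was tested.

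**Figure D4:**
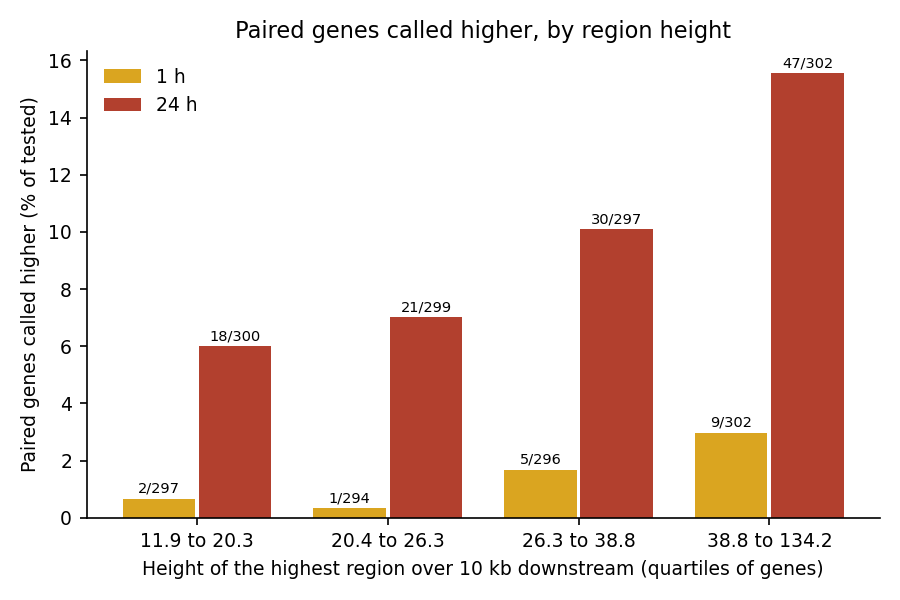
Percent of tested distal-region genes called higher (linear axis from 0) in 4 groups by the height of the gene's tallest distal region, at 1 h and 24 h, with the count called and the count tested above each bar. The share at 24 h goes from 6.0% in the lowest group to 15.6% in the highest.

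The number of distal regions per gene showed a smaller gradient. Called higher at 24 h were 60 of 731 genes with 1 region (8.21%), 28 of 240 with 2 (11.7%), 18 of 156 with 3 or 4 (11.5%) and 10 of 71 with 5 or more (14.1%). The share by distance was 13.6% for genes with a distal region at 10 to 20 kb, and from 6.38% to 9.13% in the bins beyond. Genes with a region past their end were called higher at 1 h in 8 of 234 cases (3.42%) and those with one in the gene in 10 of 998 (1.00%), while at 24 h the shares were 8.51% and 9.94%. The background over all tested genes was 0.622% higher at 1 h and 4.18% at 24 h.

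At 1 h the distal-region genes called higher ranged in log2 fold from 0.69 to 1.97, with a median of 0.97, and 8 of the 17 were at least 2-fold. The errors that follow a log2 fold are standard errors worked out from the authors' test statistic. Whether both libraries of a group entered that statistic, and so these errors and the q-values, could not be read from the tables. Sesn1, a sestrin that restrains mTORC1, had the highest fold: 7.31 FPKM in the control, 28.7 at 1 h and 17.8 at 24 h. That is a log2 fold of 1.97 ± 0.33 at 1 h (q = 0.00238 in the authors' deposited table) and 1.28 ± 0.33 at 24 h. It was highest at 1 h and still called at 24 h. More than 1 annotated gene shares its locus in the table, so its value is uncertain.

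Fkbp5, the HSP90 co-chaperone that lowers the affinity of GR for its hormone, rose at both times. Its level was 8.97 FPKM in the control, 16.8 at 1 h and 57.7 at 24 h, a log2 fold of 0.90 ± 0.33 and then 2.69 ± 0.32. Its 5 distal regions lay at 14.7 to 67.1 kb, and the taller 2, at chr20:10198726-10200049 and chr20:10194384-10195395, both had a height of 68.7. Its start window, printed above, held no hexamer. Rgcc, a regulator of the cell cycle induced by complement, was at 6.26, 18.8 and 114 FPKM in the 3 groups (log2 fold 1.59 ± 0.40 at 1 h and 4.19 ± 0.38 at 24 h). Its 1 distal region, of height 32.7, lay past the gene end at 22.9 kb from the start.

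Klf9, a Kruppel-like transcription factor and a known direct GR target, was at 17.2 FPKM in the control, 43.0 at 1 h and 50.9 at 24 h, with distal regions of height 33.9 and 31.9 at 11.3 and 21.3 kb. It was high in both treated groups, with a log2 fold of 1.32 ± 0.32 at 1 h. F3, which starts blood coagulation, was at 12.2, 28.4 and 31.3 FPKM, likewise high at both times. Spsb1, an adaptor of a ubiquitin ligase, was at 3.31, 7.02 and 9.96 FPKM. Its region of height 50.4 lay past the gene end and was the only region assigned to it by nearest start. Tsc22d3 (GILZ), a mediator of glucocorticoid action on inflammation, was at 42.5, 79.3 and 111 FPKM. The authors' table places Tsc22d3 on chromosome 3 of rn5, whereas RefSeq has it on X in GRCr8, so neither the row nor its region (chr3:52725020-52725425) can be taken as that gene with certainty.

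Among the other genes called higher at 1 h, Acer2, an alkaline ceramidase, was at 1.13, 2.59 and 4.78 FPKM in the control, at 1 h and at 24 h. Lpin1, a phosphatidate phosphatase, was at 7.15, 12.2 and 9.02 FPKM, and Dhrs3, which reduces retinaldehyde, at 5.59, 10.6 and 8.63. Lpin1, Dhrs3, Tob2 (an antiproliferative protein of the BTG/TOB family) and Rnf144b (a ubiquitin ligase) were called at 1 h and not at 24 h. Tob2 was at 12.3, 24.2 and 18.5 FPKM with a region of height 64.6. Rnf144b was at 2.81, 5.0 and 3.97 FPKM. The remaining 5 were Cpa6, RGD1309079, Nt5dc3, Mtus1 and Vmp1, each called at 24 h as well.

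Lif and Nuak2 were called lower at 1 h. Lif, a cytokine of the interleukin-6 family, was at 8.29 FPKM in the control, 3.23 at 1 h and 5.68 at 24 h, a log2 fold of -1.36 ± 0.51 at 1 h. Nuak2, a kinase related to AMPK, was at 7.09, 3.74 and 7.02 FPKM, a log2 fold of -0.92 ± 0.36. Both were lowest at 1 h. At 24 h Nuak2 was close to its control value, while Lif was still below it (log2 fold -0.55 ± 0.47), and neither was called. Their distal regions, of height 20.7 and 32.8, both lay past the gene end and were the only regions assigned to them by nearest start.

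**Figure D5:**
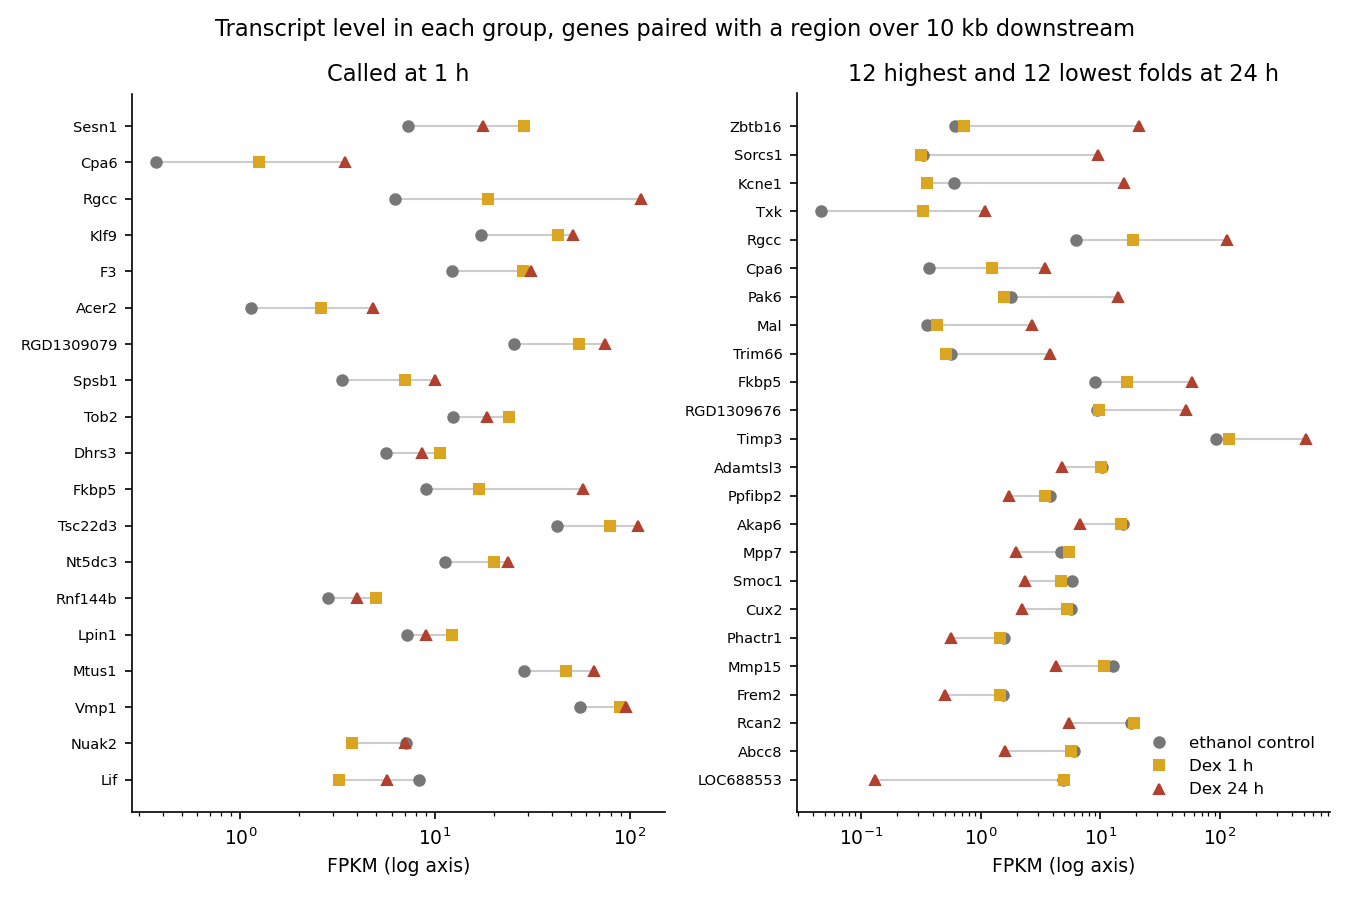
Level in FPKM (log axes) in the ethanol control, at 1 h and at 24 h, 1 pooled value per group, for the 19 distal-region genes called at 1 h (left) and for the 12 highest and 12 lowest folds called at 24 h (right). Zbtb16 lies at 0.613 and 0.732 FPKM in the control and at 1 h and at 21.1 at 24 h; LOC688553 lies at 4.84, 4.98 and 0.132.

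At 24 h the 115 distal-region genes called higher with a fold had a median log2 fold of 1.23, against 1.28 over all genes called higher, and 74 were at least 2-fold. Another called gene, Nr1i2, was listed at 0 in the control and has no fold. Zbtb16 had the highest: 0.613 FPKM in the control, 0.732 at 1 h and 21.1 at 24 h, a log2 fold of 5.10 ± 0.46 (q = 0.00238 in the authors' deposited table). Control and 1 h were alike and low, and it was not called at 1 h. Sorcs1, a sorting receptor of the VPS10 family, had the same shape at 0.330, 0.317 and 9.60 FPKM (4.86 ± 0.47). Its 3 regions, at 119 to 262 kb with heights of 24.0 to 49.3, were all that were assigned to it by nearest start.

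Kcne1, the auxiliary subunit of the slow delayed rectifier potassium channel, was at 0.603, 0.356 and 15.9 FPKM (4.72 ± 0.73 at 24 h). Its distal region, of height 23.5, lay past the gene end at 15.4 kb. Txk, a tyrosine kinase of the Tec family, was called at 24 h from levels of 0.0466, 0.331 and 1.08 FPKM, so its fold of 4.54 ± 0.99 starts from a very low control value. Pak6, a p21-activated kinase, was at 1.80, 1.56 and 14.1 FPKM, and Mal, a membrane raft proteolipid, at 0.359, 0.433 and 2.68. Trim66 was at 0.566, 0.510 and 3.79. In these 3 the control and 1 h values lay together and the 24 h value apart from them.

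Timp3, an inhibitor of matrix metalloproteinases, was at 92.8, 119 and 518 FPKM (2.48 ± 0.31), but its locus in the table spans 404 kb and holds another gene, so its value is uncertain. RGD1309676 was at 9.30, 9.81 and 52.0 FPKM. Cpa6, a carboxypeptidase, was at 0.370, 1.25 and 3.45. Mmp24, a membrane-bound matrix metalloproteinase whose region sat at the 10 kb edge, was at 2.06, 1.93 and 10.9 FPKM and was called higher at 24 h. Tns1, with the most distal regions, was at 157, 140 and 279 FPKM (0.83 ± 0.31) and was also called higher at 24 h.

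The 20 distal-region genes called lower at 24 h had a median log2 fold of -1.17, against -1.21 over all genes called lower, and 15 were at least 2-fold. LOC688553 had the lowest at 4.84, 4.98 and 0.132 FPKM. Abcc8, the sulfonylurea receptor of ATP-sensitive potassium channels, was at 5.99, 5.72 and 1.60 FPKM (-1.90 ± 0.37), with 3 regions of height 23.1 to 33.4. Rcan2, a regulator of calcineurin, was at 18.1, 19.0 and 5.42 FPKM (-1.74 ± 0.34). Akap6, which anchors protein kinase A at the nuclear envelope of myocytes, was at 15.6, 14.8 and 6.77 FPKM (-1.20 ± 0.32). In all 4 the control and 1 h values were close and the 24 h value was low.

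The other 8 of the 12 lowest were Frem2 and Smoc1 (extracellular matrix and basement membrane proteins), Mmp15 (a membrane-type metalloproteinase), Phactr1 (a regulator of protein phosphatase 1 and actin), Cux2 (a homeobox factor), and Mpp7, Ppfibp2 and Adamtsl3. Their log2 folds at 24 h lay between -1.62 and -1.10. None of these 12 genes was called at 1 h. Mmp15 was the only one of the 12 with a region of another class. The median height was 23.4 over the regions of the genes called lower, 27.0 over those of the genes called higher and 22.9 over those of the genes not called.

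Of the lists of genes with known roles, the classical GR targets held the most calls. Each list count stands against a background of 0.622% of all tested genes called higher at 1 h and 4.18% at 24 h. Of its 35 genes 10 had distal regions; 4 were called higher at 1 h (Klf9, Sesn1, Fkbp5 and the uncertain Tsc22d3) and 6 at 24 h (these with Foxo3 and Zbtb16), and none lower. Over the whole list 17 of 33 were called higher at 1 h and 21 of 34 at 24 h. The list is of known targets and was drawn up with earlier results of these data known, so its direction is no independent evidence. Foxo3, a forkhead factor of atrophy and autophagy genes, was at 7.91, 11.4 and 14.9 FPKM (0.92 ± 0.33 at 24 h), with 7 distal regions of which the tallest, 69.5, lay at 25.7 kb. Irs2, Pik3r1, Tgfbr3 and Tle3 were not called at either time.

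Of 31 calcium and ion handling genes 16 had distal regions and 14 were tested; 0 were called at 1 h and 2, Kcne1 and Cacna1h, were called higher at 24 h, a count too small to set apart from the 9.68% of all distal-region genes. Cacna1h, a T-type calcium channel, was at 11.9, 12.6 and 31.3 FPKM, a value that is uncertain because its locus is shared. The L-type channel Cacna1c, the exchanger Slc8a1, the kinase Camk2d and the calcium store protein Casq2 all had distal regions and were not called. Over the whole list 5 genes were called lower at 24 h, and none of these had a distal region. Lower calls at 24 h were 1.67% of distal-region genes and 2.04% of all tested genes, so 0 among 14 is near that share.

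The 5 tested sarcomere and Z-disc genes and the 15 receptor and kinase genes with distal regions held 0 calls at either time, counts near what the background of 4.18% higher at 24 h gives in lists of this size. Actn2, the Z-disc actinin, was at 621, 595 and 579 FPKM, and Pdlim5, a Z-disc scaffold with a region of height 99.9, at 238, 214 and 330. Adcy5, a cardiac adenylyl cyclase, was at 16.3, 14.5 and 15.4 FPKM, and Acvr1, an activin-type receptor, at 26.4, 25.8 and 20.6. None of these 4 was called, and no difference between their groups could be set against a spread between replicates.

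Among transcription factors of heart and muscle, 17 with distal regions were tested, and 1 (Klf9) was called higher at 1 h and 3 (Klf9, Zbtb16 and Myocd) at 24 h, where the whole list had 5 of 30 and all tested genes 4.18%. Myocd, the coactivator of serum response factor in cardiac and smooth muscle, was at 9.59, 9.98 and 16.2 FPKM (0.76 ± 0.32 at 24 h). Gata4, Gata6, Tead1, Foxp1, Nfia and Ppargc1a were among the 14 not called. Of 8 extracellular matrix genes 2, Timp3 and Adamts9, were called higher at 24 h (3 of 20 over the whole list), and Col4a1 at 1622, 1490 and 1922 FPKM was not.

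The calls in the remaining lists were few, between 1 and 3 genes each. Slc2a1 (the glucose transporter GLUT1) was called higher at 24 h at 43.1, 46.3 and 116 FPKM, with a region of height 65.6 at 20.4 kb. Hsd11b1, which regenerates active glucocorticoid, was at 12.7, 14.3 and 30.2 FPKM and was called higher at 24 h. Npas2, a clock transcription factor, was called higher at 24 h at 0.674, 0.896 and 2.24 FPKM, while Per2, another clock gene with a distal region, was not called. Ncam1, a cell adhesion molecule, rose to 105 FPKM at 24 h from 52.9, and was the 1 of 8 junction genes called. Among the 8 inflammation genes Ccl20, a chemokine, was at 1.78, 2.25 and 5.19 FPKM and called higher at 24 h, beside Lif and Tsc22d3 above. The gene of GR itself, Nr3c1, had 3 regions assigned by nearest start, none of them distal. It was at 19.7, 19.6 and 13.3 FPKM, not called, at a locus where its value is uncertain.

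A tall or a crowded set of distal regions did not go with a call in every gene. Ddc, with a region of 134.2, was at 9.49, 9.84 and 8.71 FPKM. Lrch1 was at 9.61, 9.18 and 10.9, and Map1b at 31.4, 35.1 and 41.0. Klf13 was at 7.47, 8.35 and 12.1 FPKM, and Tom1l2 at 19.7, 17.8 and 26.7; neither was called. Over all tested genes 4.18% were called higher at 24 h. Of the 8 genes with an expression row among the 10 tallest regions, Zbtb16, Sesn1 and F3 were called higher at 24 h. Of the 9 genes with a row among those with 9 or more regions, Tns1 and Zbtb16 were, while Rbm20 was at 31.7, 28.9 and 27.5 FPKM and Nuak1 at 55.5, 58.1 and 53.1.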

How the data were processed

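Reads were aligned and quantified with TopHat, Cufflinks and Cuffdiff on rn5, per the submitters' processing notes, with no versions stated. The authors deposited 1 FPKM value per gene and group, with a p-value and q-value for each comparison with the control and a log2 fold. The GR regions came in the authors' deposited sheet, with the height as a score, the log2 ChIP ratio, the distance to the start and a CpG island mark. The deposited tables also hold 6 columns of ChIP signal per sample, which were not used because they could not be tied to samples here. The members and the gene lists were chosen with earlier results of these data known.

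Regions were joined to expression rows by the gene ID of the sheet with Python 3.11.15, pandas 2.3.3, numpy 2.4.6 and SciPy 1.17.1. A distal region counted as placed where it lay within 12 kb of the paired row's locus, and 4 regions did not, 1 of them on another chromosome. No test was run on the single values per group, and calls are the authors' q-value of at most 0.05. Folds of named genes are FPKM ratios, and the error of each is its log2 fold over the deposited test statistic, while medians over genes use log2 of FPKM + 1. The join and the classes were tested on simulated data. Of the 1305 paired genes 85 share a symbol or locus with another row, or have a region that was not placed, and are called uncertain where named. RefSeq gave a chromosome for 1219 by symbol, and it differed from the table in 1.

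Named with values were the 10 tallest regions, the 10 genes with most regions, all genes called at 1 h, the 12 highest and 12 lowest folds at 24 h with at least 1 FPKM in a group, up to 4 called genes of each list, the 5 regions just above 10 kb and Nr3c1. Kdr, Pecam1, Nr1i2 and list genes given without values were chosen after their values were seen. Some items are not reported here.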

Additional observations from a re-analysis of the deposited data

Results flagged for a closer look

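Kcne1, the potassium channel subunit with a GR region past its gene end, had folds of opposite sign at the 2 times. Its log2 fold was -0.76 ± 1.05 at 1 h, smaller than its error and not called, and 4.72 ± 0.73 at 24 h, which was called. The level was 0.603 FPKM in the control, 0.356 at 1 h and 15.9 at 24 h. Both folds share the 1 control value, and the difference between the 2 times was not tested.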

How the results depend on the processing

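Of 53 recomputed summary values under other settings 42 stayed within the limits set (1.5 times and the 95% binomial interval for shares, 1.5 times for the number of regions, 1 SD over regions or genes for medians) and 11 moved. The SD was 15.0 for height, where the medians of the position classes lay between 19.7 and 23.3. For the log2 medians it was 0.19 at 1 h and 0.49 at 24 h. Such limits are so wide that a median could hardly pass them, so the medians that stayed are a weak check. The authors' list of all comparisons held the same 100 calls at 1 h, so shares taken from it could not move. Counting only distances above 50 kb left 1446 regions, fewer by construction. At a q-value of at most 0.01 the share called higher was 0.757% at 1 h and 7.43% at 24 h, and the share called lower was 0 at 1 h and 1.09% at 24 h. The 2 genes called lower at 1 h have regions nearer than 20 kb, so that share was also 0 for distances above 20 kb and above 50 kb. It was 0.291% above 5 kb, 0.303% for genes with no region of another class and 0.0869% for loci over 10 kb, all from 1 to 4 genes. The share called lower at 24 h was 2.55% for distances above 50 kb, against 2.04% over all tested genes. The median log2 difference at 1 h was 0.00 and changed sign within rounding at FPKM of at least 1. Of 64 calls of named genes 15 were lost at a q-value of at most 0.01, among them 8 of the 17 higher calls at 1 h. A pseudocount of 1 cannot change the direction of a fold, so it gave no check of direction. The other 3 settings were added after seeing the data. Without CpG islands the median height was 23.7. With loci over 10 kb only, the share called higher was 1.30% at 1 h (all genes 0.385%) and 9.41% at 24 h (all genes 4.29%). Without markers of other cell types it was 9.53% at 24 h (114 of 1196 genes, against 116 of 1198), a setting that left out too few genes to move it. No paired analysis was possible because each group has 1 pooled value per gene, and no replicate could be left out for the same reason. Depth is unknown, so no level carries a counting limit.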
